A study of Mus musculus with 17 samples.

Results

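The monocyte-attracting CC chemokines and their receptors were followed in mouse lung after focal high-dose irradiation. The members were the genes that carry the symbols Ccl2, Ccl3, Ccl4, Ccl5, Ccl7, Ccl8, Ccl12, Ccr1 and Ccr2 in the deposited count table, that is 7 ligands and 2 receptors, or 9 of 45777 listed genes. The rule used names only, and the names were chosen with earlier results of these data known. All mice were wild-type male C57BL/6 animals, 6 weeks old on arrival and then acclimatised for 1 week. The left lung of the treated mice received 65 or 75 Gy as 1 image-guided exposure, and the control mice were not irradiated. Lung was taken at 2 weeks, which the study treats as its inflammation stage, or at 6 weeks, its fibrosis stage. Each of the 6 groups held 3 libraries, apart from 65 Gy at 6 weeks, which held 2. The study lists 3 replicates for that group and reports fewer reads and the lowest mapping ratio for its replicate 2. Which replicate is absent here is not stated. The methods of the study place the irradiated RNA in the lesions, so irradiation and the site of sampling cannot be told apart. The labels do not say that the libraries came from separate animals, so the p-values below measure the spread between libraries.

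CC chemokines are small secreted proteins that draw leukocytes along a gradient through G protein-coupled receptors. Ccl2, Ccl7 and Ccl12 act on Ccr2, the receptor that classical monocytes use to leave the bone marrow and enter injured tissue, where they can become macrophages. Ccl8 belongs to the same monocyte chemoattractant protein (MCP) family. Ccl3 and Ccl4 are the macrophage inflammatory proteins, and Ccl5 is a product of activated T and NK cells. Ccl3 and Ccl5 act on Ccr1. Members of the MCP family are known from lung inflammation and fibrosis.

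Irradiated lungs held more RNA of the MCP ligands than control lungs at both doses and both times, from 4.28-fold for Ccl12 at 65 Gy and 2 weeks to 46.3-fold for Ccl8 at 75 Gy and 6 weeks. Ccl2 and Ccl7 had their highest means at 2 weeks, and Ccl8 had its highest mean at 6 weeks. The macrophage inflammatory proteins Ccl3 and Ccl4 were called higher at 2 weeks, and at 6 weeks only Ccl3 at 65 Gy was called. Ccr2 was called higher in every comparison with controls except 65 Gy at 2 weeks. Ccl5 was called in none of the 4 comparisons. A level here is CPM, the usual depth-scaled read count, after scaling by trimmed mean of M-values (TMM). A gene was called where the adjusted p was 0.05 or less and the log2 change 1 or more in size, by the quasi-likelihood test of edgeR adjusted over 22052 tested genes after Benjamini and Hochberg.

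The libraries held 46764569 to 66797879 counts, with a median of 57608149, and all 9 members passed the filter on low counts. The lung epithelium list was present throughout, with Sftpc, a surfactant protein gene, at group means between 10540 and 15450 CPM and Sftpb, another surfactant gene, between 3225 and 3630 CPM. None of its 11 genes was called in any of the 4 comparisons with controls. Library 3134, 1 of the 3 of 75 Gy at 2 weeks, had the highest level within its group for every member. Its summed lung epithelium level, 22370 CPM, was the lowest of the 17 libraries, against 41020 and 31610 CPM in the others of its group, and its endothelial sum was 964.6 CPM, against 1772 and 1608 CPM. Among the 2-week controls, library 3126 had the highest macrophage marker sum, 10540 CPM, against 5079 and 6824 CPM in the others. Its classical monocyte marker sum was 213 CPM, against 96.8 and 132 CPM. The part of these differences in the member levels was not tested. In bulk RNA, more cells of a type and more RNA per cell cannot be told apart.

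At 2 weeks, 6 of the 9 members were called higher at 65 Gy (Ccl2, Ccl3, Ccl4, Ccl7, Ccl8 and Ccl12), against 3.47% of all genes tested. At 75 Gy and 2 weeks, 8 of 9 were called higher, all but Ccl5, against 5.67% of all genes, and 7 were called without library 3134. At 6 weeks, 6 of 9 were called higher at 65 Gy (Ccl2, Ccl3, Ccl7, Ccl8, Ccl12 and Ccr2), against 4.34% of all genes. The same number was called at 75 Gy and 6 weeks (Ccl2, Ccl7, Ccl8, Ccl12, Ccr1 and Ccr2), against 7.28% of all genes. The median log2 fold change over the 9 members was 2.09, 2.38, 1.48 and 1.91 in these 4 comparisons, beside medians of -0.0085, 0.00084, 0.0081 and 0.04 over all genes. Both doses of a time were set against the same controls, so these rows of values are not independent of each other. No member was called lower. Ccl2, Ccl7, Ccl8 and Ccl12 were called higher in all 4 comparisons, as were 1.94% of all genes.

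The irradiated libraries all lay above the controls of their time for 7 of 9 members at 65 Gy and 2 weeks, all but Ccl5 and Ccr1, against 15.9% of all genes. At 75 Gy and 2 weeks this held for 8 members, all but Ccl5, against 15.5% of all genes. The same 8 members showed it at 6 weeks at both doses, against 28.2% of all genes at 65 Gy and 29.4% at 75 Gy.

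**Figure D1:**
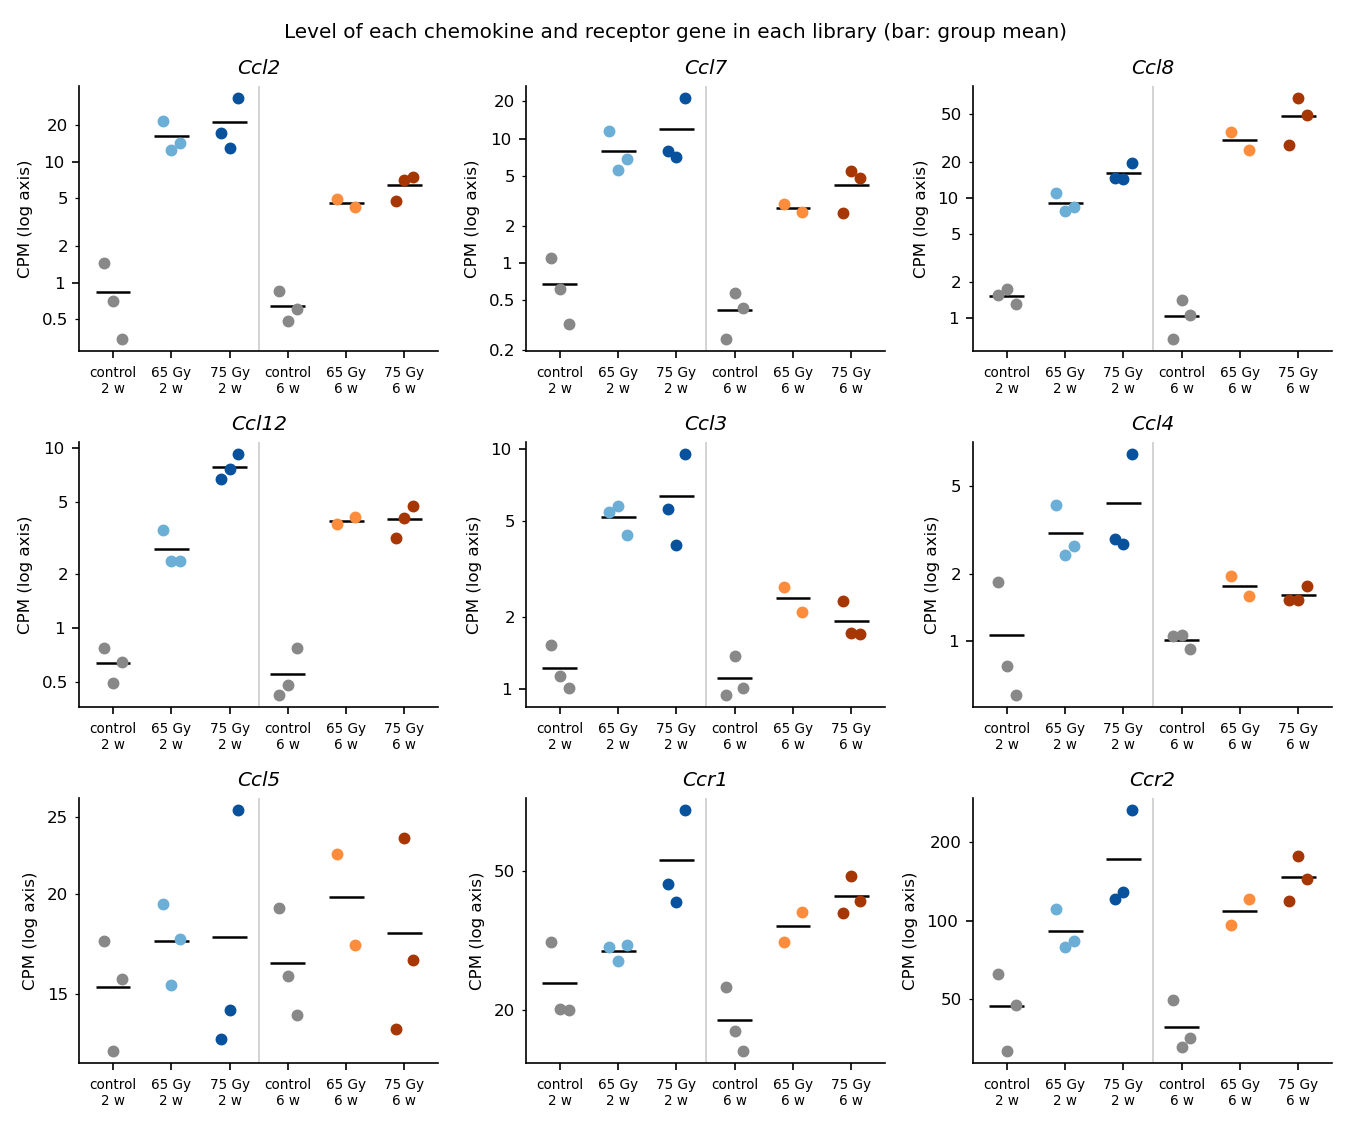
Level of each member in each of the 17 libraries, in CPM on a log axis, with 1 point per library, a bar for the group mean, and w for weeks. Ccl2 and Ccl7 have their highest means in the irradiated groups of 2 weeks, Ccl8 in those of 6 weeks, and the groups of Ccl5 overlap.

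The 4 MCP ligand genes lie together on chromosome 11 of GRCm38.p6, within 81.2 kb and all on the plus strand. In the RefSeq models, Ccl2 (gene ID 20296) spans chr11:82035577-82037452, Ccl7 (20306) spans chr11:82045712-82047525, Ccl12 (20293) spans chr11:82101845-82103399 and Ccl8 (20307) spans chr11:82115185-82116799. Each has 3 exons in its GENCODE transcript. Ccl8 starts 11.8 kb after the end of Ccl12.

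Ccl2, the main CCR2 ligand, held 1.46, 0.707 and 0.343 CPM in the controls of 2 weeks. It held 21.6, 12.6 and 14.3 CPM after 65 Gy and 17.2, 12.9 and 33.5 CPM after 75 Gy. All 6 irradiated libraries lay above all 3 controls, and both doses overlapped. Set against controls, the log2 fold change was 4.27 (SE 0.46, adjusted p = 5.22e-05) at 65 Gy and 4.66 (SE 0.46, adjusted p = 1.32e-05) at 75 Gy. Without control 3126, which held the 1.46 CPM, these were 4.96 and 5.35, and without library 3134 the value at 75 Gy was 4.17. At 6 weeks, the controls held 0.86, 0.481 and 0.611 CPM, the 65 Gy libraries 4.95 and 4.23 CPM, and the 75 Gy libraries 4.76, 7.11 and 7.47 CPM. The irradiated libraries again lay above the controls, and below every irradiated library of 2 weeks. The log2 fold change over controls was then 2.81 (SE 0.48, adjusted p = 0.0017) at 65 Gy and 3.30 (SE 0.45, adjusted p = 0.00011) at 75 Gy.

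Ccl7, which acts on CCR2 and several other CC receptors, followed the same order of groups. It held 1.10, 0.621 and 0.324 CPM in the controls of 2 weeks, 11.6, 5.57 and 6.91 CPM after 65 Gy, and 7.95, 7.09 and 21.3 CPM after 75 Gy. The controls of 6 weeks held 0.243, 0.571 and 0.436 CPM, against 3.001 and 2.58 CPM after 65 Gy, and 2.51, 5.50 and 4.84 CPM after 75 Gy. No irradiated library overlapped the controls of its time. The log2 fold changes over controls were 3.56 (SE 0.52, adjusted p = 0.000551) and 4.16 (SE 0.53, adjusted p = 0.000115) at 2 weeks, and 2.75 (SE 0.57, adjusted p = 0.00588) and 3.36 (SE 0.54, adjusted p = 0.000327) at 6 weeks, for 65 and 75 Gy in turn. Without library 3134, the value of Ccl7 at 75 Gy and 2 weeks was 3.47. In the controls, Ccl2 and Ccl7 rested on 15 to 72 counts per library.

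Ccl8 had the largest difference from controls of any member at 6 weeks. In the controls of 2 weeks it held 1.56, 1.76 and 1.30 CPM, after 65 Gy 11.1, 7.77 and 8.41 CPM, and after 75 Gy 14.8, 14.4 and 19.5 CPM. These groups did not overlap, with 75 Gy highest. In the controls of 6 weeks it held 0.665, 1.41 and 1.06 CPM, after 65 Gy 35.7 and 24.9 CPM, and after 75 Gy 27.5, 68.1 and 49.4 CPM. Every irradiated library of 6 weeks lay above every library of 2 weeks. For Ccl8 the log2 fold change over controls was 2.57 (SE 0.32, adjusted p = 0.000183) and 3.40 (SE 0.33, adjusted p = 9.50e-06) at 2 weeks, and 4.86 (SE 0.36, adjusted p = 1.09e-06) and 5.53 (SE 0.35, adjusted p = 1.74e-07) at 6 weeks, for 65 and 75 Gy. The last of these is 46.3-fold, with a 95% interval of 27.5 to 77.9.

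Ccl12, a CCR2 ligand of the mouse, held 0.771, 0.493 and 0.648 CPM in the controls of 2 weeks, 3.49, 2.36 and 2.37 CPM after 65 Gy, and 6.74, 7.63 and 9.27 CPM after 75 Gy. The groups did not overlap. At 6 weeks, the controls held 0.422, 0.481 and 0.768 CPM, the 65 Gy libraries 3.78 and 4.11 CPM, and the 75 Gy libraries 3.18, 4.11 and 4.75 CPM, so both doses overlapped and lay above the controls. It differed from controls by 2.098 on the log2 scale (SE 0.26, adjusted p = 0.000164) at 65 Gy and by 3.62 (SE 0.27, adjusted p = 8.87e-07) at 75 Gy at 2 weeks. The 6-week values were 2.82 (SE 0.28, adjusted p = 1.69e-05) at 65 Gy and 2.85 (SE 0.26, adjusted p = 5.07e-06) at 75 Gy.

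**Figure D2:**
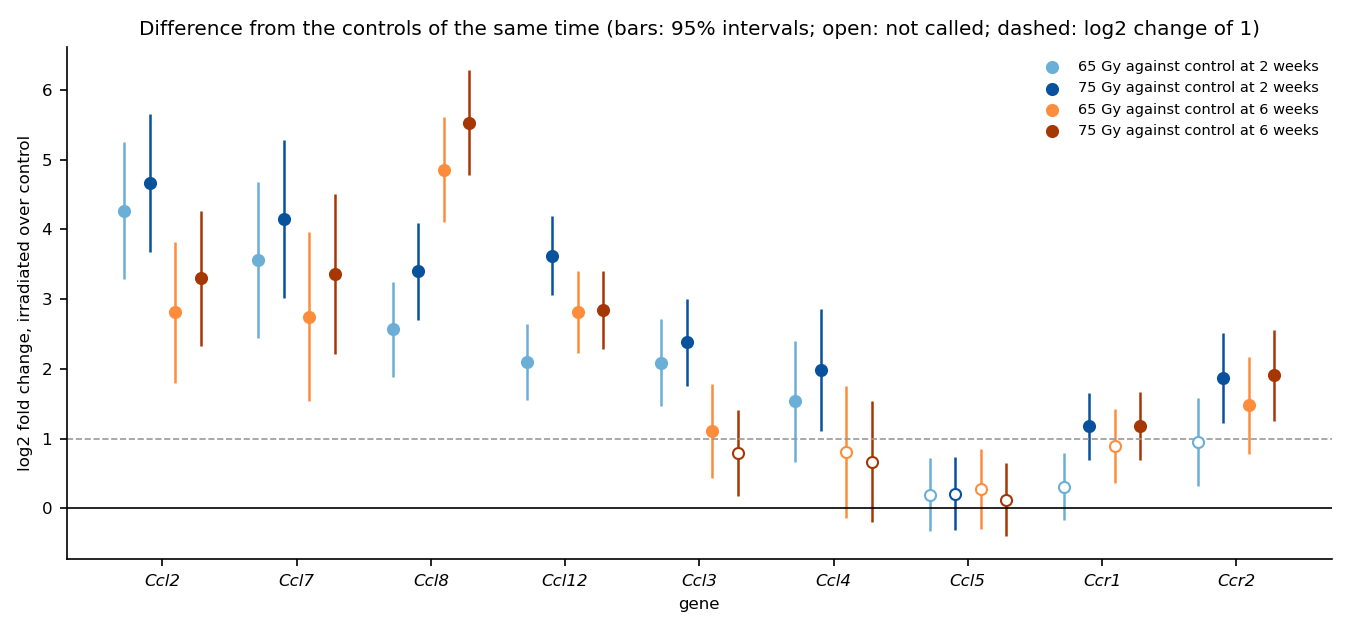
Log2 fold change of each member over the controls of the same time, for 65 and 75 Gy at 2 and 6 weeks, with 95% intervals from edgeR's quasi-likelihood fit. Filled points were called and open points were not. The points of Ccl8 stand highest at 6 weeks, at 4.86 and 5.53, and the 4 intervals of Ccl5 all include 0.

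Ccl12 and Ccl8 are neighbours. From 2 to 6 weeks, Ccl8 changed by 1.74 on the log2 scale after 65 Gy and 1.58 after 75 Gy. Ccl12 changed by 0.53 and -0.97, called at neither dose, so their directions differed at 75 Gy only. The 250 bases before their start sites are shown from RefSeq (GRCm38.p6, both on the plus strand). The Ccl12 stretch is chr11:82101595-82101844 and the Ccl8 stretch is chr11:82114935-82115184. Capitals mark the TATA box letters TATAAA and, on either strand, the core of PU.1 motifs of myeloid genes, GAGGAA.
Ccl12: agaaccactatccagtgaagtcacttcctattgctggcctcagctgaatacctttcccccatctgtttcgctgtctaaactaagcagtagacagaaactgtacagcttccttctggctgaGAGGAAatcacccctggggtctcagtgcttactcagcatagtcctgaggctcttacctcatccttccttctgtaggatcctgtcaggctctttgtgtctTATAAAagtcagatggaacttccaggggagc
Ccl8: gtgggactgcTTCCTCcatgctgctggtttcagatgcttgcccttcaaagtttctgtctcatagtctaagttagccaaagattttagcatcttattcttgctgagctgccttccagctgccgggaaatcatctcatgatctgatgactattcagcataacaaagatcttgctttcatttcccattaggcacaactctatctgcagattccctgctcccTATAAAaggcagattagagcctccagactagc
TATAAA begins 31 bases before the start of Ccl12 and 32 bases before the start of Ccl8, and 12.4% of 32851 upstream windows of the same length hold it on either strand. The PU.1 core lies 130 bases before the start of Ccl12 and 240 bases before that of Ccl8, and 23.3% of all windows hold it. An AP-1 motif (TGANTCA), a GAS motif (TTCNNNGAA), the ISRE and the NF-kB consensus, both given by name, were also searched on both strands and were not in these letters, and 6.75%, 7.02%, 2.98% and 3.9% of all windows hold them. Aligned end to end, both stretches shared 145 identical bases over 266 columns, or 54.5%. A match of letters is a description and does not show binding. Upstream windows were matched for 5 of the 9 members (Ccl3, Ccl8, Ccl12, Ccr1 and Ccr2).

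The make-up of the MCP transcripts differed between the times. Levels were divided by the length of each mRNA, from 511 bases for Ccl8 to 813 for Ccl2, and each gene's share of the sum over the 4 genes was taken in each library. Ccl8 made up 31.4 to 36.2% of the sum in the 65 Gy libraries of 2 weeks and 30.9 to 41.9% in the 75 Gy libraries. At 6 weeks, its share was 75.2 and 80.5% after 65 Gy and 78.3 to 85.1% after 75 Gy. The irradiated libraries of both times did not overlap. In the controls, Ccl8 made up 39.9 to 57.3% at 2 weeks and 37.7 to 55.6% at 6 weeks, and so lay between the irradiated libraries of 6 weeks and, save for an overlap with 75 Gy, those of 2 weeks.

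Ccl2 made up 36.8 to 38.3% of the same sum after 65 Gy and 23.7 to 33.5% after 75 Gy at 2 weeks, against 7.02 and 8.03% after 65 Gy and 5.59 to 8.52% after 75 Gy at 6 weeks. The share of Ccl12 at 2 weeks was 9.36 to 10.5% after 65 Gy and 14.0 to 21.2% after 75 Gy. The sum itself overlapped between the times. It was 42.0 to 69.3 CPM per kb at 65 Gy and 67.1 to 123 CPM per kb at 75 Gy at 2 weeks, and 64.9 and 86.7 CPM per kb at 65 Gy and 68.7 to 157 CPM per kb at 75 Gy at 6 weeks. In the controls it was 4.57 to 7.66 CPM per kb at 2 weeks and 3.45 to 4.96 CPM per kb at 6 weeks.

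**Figure D3:**
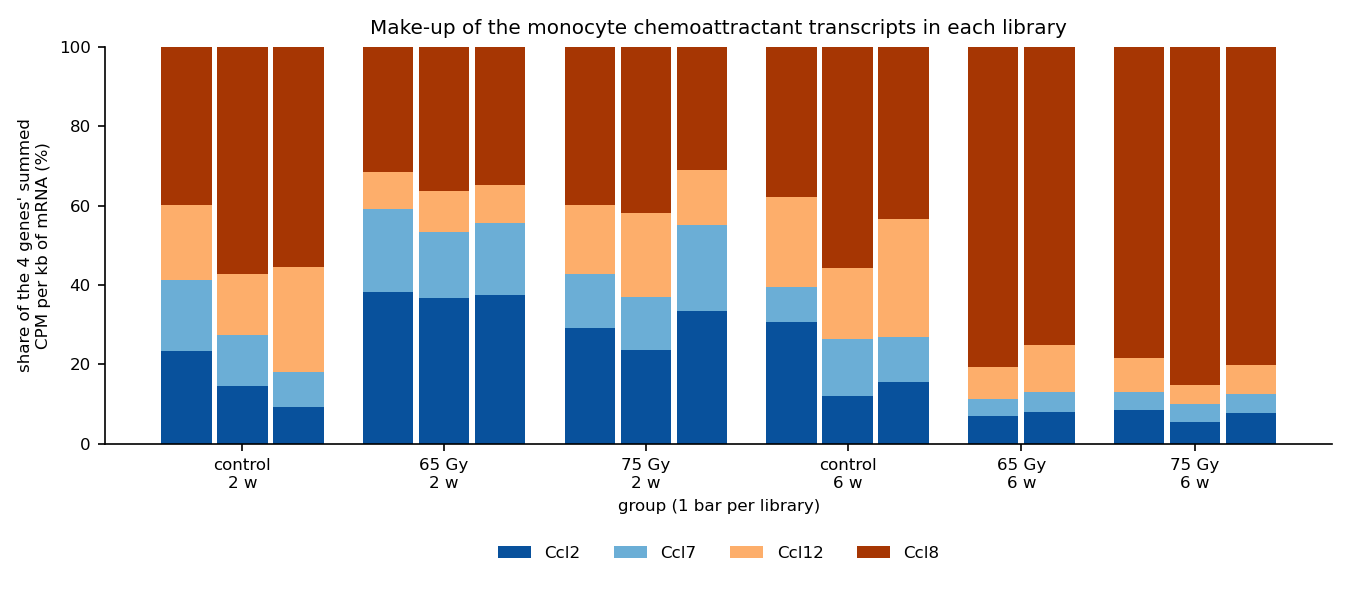
Share of Ccl2, Ccl7, Ccl12 and Ccl8 in their summed level per kb of mRNA, in percent, with 1 bar per library. Ccl8 takes 75.2 to 85.1% in the irradiated libraries of 6 weeks and 30.9 to 41.9% in those of 2 weeks.

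Ccl3 (20302, chr11:83647843-83649378, minus strand) and Ccl4 (20303, chr11:83648624-83664683, plus strand) are neighbours in a second group on chromosome 11, 1409 kb from the first. Their RefSeq models overlap by 755 bases on opposite strands. The library kit marks strand, but the setting used for counting is not given in the sources used here, so part of the counts of each could belong to the other.

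Ccl3, a ligand of CCR1, held 1.52, 1.14 and 1.01 CPM in the controls of 2 weeks, 5.46, 5.80 and 4.36 CPM after 65 Gy, and 5.60, 3.99 and 9.53 CPM after 75 Gy. The irradiated libraries lay above the controls and both doses overlapped. At 6 weeks, the controls held 0.941, 1.37 and 1.01 CPM, the 65 Gy libraries 2.67 and 2.099 CPM, and the 75 Gy libraries 2.33, 1.72 and 1.70 CPM. The irradiated libraries still lay above the controls, at lower levels than at 2 weeks. Against controls, the 2-week log2 fold change was 2.09 (SE 0.29, adjusted p = 0.000374) at 65 Gy and 2.38 (SE 0.29, adjusted p = 8.40e-05) at 75 Gy. Its 6-week values were 1.11 (SE 0.32, adjusted p = 0.0304) at 65 Gy and 0.79 (SE 0.29, adjusted p = 0.0454) at 75 Gy, which is under the fold needed for a call. The 6-week call at 65 Gy was lost without control library 3135 or 3137, where the log2 fold changes were 0.9996 and 1.05, and without 65 Gy library 3138 or 3140, where they were 0.93 and 1.28.

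Ccl4, a chemokine of macrophages and activated lymphocytes, held 1.85, 0.771 and 0.572 CPM in the controls of 2 weeks, 4.10, 2.44 and 2.69 CPM after 65 Gy, and 2.89, 2.75 and 6.96 CPM after 75 Gy. The irradiated libraries lay above the controls, with the highest control, at 1.85 CPM, not far below the lowest irradiated library, at 2.44 CPM. At 6 weeks, the controls held 1.05, 1.07 and 0.925 CPM, the 65 Gy libraries 1.96 and 1.60 CPM, and the 75 Gy libraries 1.54, 1.54 and 1.77 CPM. Log2 fold changes over controls were 1.53 (SE 0.41, adjusted p = 0.026) and 1.98 (SE 0.41, adjusted p = 0.00317) at 2 weeks, and 0.81 (SE 0.45, adjusted p = 0.245) and 0.67 (SE 0.41, adjusted p = 0.215) at 6 weeks, for 65 and 75 Gy. The call at 65 Gy and 2 weeks was lost without control 3127 (log2 fold change 1.35), without control 3128 (1.23) or without 65 Gy library 3129 (1.27). Without control 3126, the highest of the controls, the 2-week values were 2.20 and 2.65 for 65 and 75 Gy, and without library 3134 that at 75 Gy was 1.41.

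Ccl5 (20304, chr11:83525778-83530518, minus strand), which attracts T cells and monocytes through receptors that include CCR1 and CCR3, was the most abundant member per length in the controls. It held 17.5, 12.7 and 15.6 CPM in the controls of 2 weeks, 19.4, 15.4 and 17.6 CPM after 65 Gy, and 13.1, 14.3 and 25.5 CPM after 75 Gy. The 6-week libraries held 19.2, 15.8 and 14.1 CPM in controls, 22.5 and 17.3 CPM after 65 Gy, and 13.6, 23.6 and 16.6 CPM after 75 Gy. All groups overlapped. The log2 fold changes over controls lay between 0.13 (SE 0.24, adjusted p = 0.721) at 75 Gy and 6 weeks and 0.28 (SE 0.27, adjusted p = 0.541) at 65 Gy and 6 weeks. Their 95% intervals ran from -0.40 to 0.86, so a change as large as that of the MCP ligands lay outside them. The sign at 75 Gy turned without library 3134 at 2 weeks and without library 3142 at 6 weeks. The RefSeq model of Ccl5 lies within that of the long non-coding RNA Gm32650, whose reads could not be told apart without strand.

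The receptor genes lie within 147 kb on chromosome 9, with Ccr1 (12768) at chr9:123962126-123968692 on the minus strand and Ccr2 (12772) at chr9:124101918-124109140 on the plus strand. Of the 2950 stretches of 50 bases in the Ccr2 mRNA, 110 also occur in GENCODE transcripts of another gene, so those counts are uncertain. No such stretch of any other member occurs in GENCODE transcripts of another gene. The transcripts of the NCBI annotation, on which the reads were assembled, were not searched.

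Ccr2, the receptor of classical monocytes, held 62.5, 31.4 and 47.5 CPM in the controls of 2 weeks, 111, 79.2 and 83.5 CPM after 65 Gy, and 122, 129 and 266 CPM after 75 Gy. These 3 groups did not overlap. Among the 6-week libraries it held 49.4, 32.6 and 35.2 CPM in controls, 96.3 and 121 CPM after 65 Gy, and 119, 177 and 145 CPM after 75 Gy. The irradiated libraries lay above all controls at this time as well. Over controls, Ccr2 differed on the log2 scale by 0.95 (SE 0.30, adjusted p = 0.0527) at 65 Gy and 2 weeks, which missed both limits of a call, and 1.87 (SE 0.30, adjusted p = 0.00069) at 75 Gy. The corresponding values of 6 weeks were 1.48 (SE 0.33, adjusted p = 0.00836) at 65 Gy and 1.91 (SE 0.31, adjusted p = 0.000327) at 75 Gy. Without control 3126, the value at 65 Gy and 2 weeks was 1.21 and was called, and without library 3140, that at 65 Gy and 6 weeks was 1.31 and was not called.

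Ccr1, a receptor of Ccl3, Ccl5 and Ccl7 on monocytes and neutrophils, held 31.3, 20.2 and 20.0 CPM in the controls of 2 weeks, 30.2, 27.6 and 30.8 CPM after 65 Gy, and 45.7, 40.8 and 74.6 CPM after 75 Gy. The 65 Gy libraries overlapped the controls, and the 75 Gy libraries lay above both. Later, at 6 weeks, it held 23.3, 17.4 and 15.2 CPM in controls, 31.2 and 38.2 CPM after 65 Gy, and 37.9, 48.4 and 40.9 CPM after 75 Gy. Its log2 fold change was 0.31 (SE 0.23, adjusted p = 0.433) and 1.17 (SE 0.23, adjusted p = 0.00213) at 2 weeks, and 0.89 (SE 0.25, adjusted p = 0.0268) and 1.18 (SE 0.23, adjusted p = 0.0012) at 6 weeks, for 65 and 75 Gy. Without library 3134, the value at 75 Gy and 2 weeks was 0.86 and was under the fold needed for a call, and without control 3135, that at 65 Gy and 6 weeks was 1.09 and was called.

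Per kb of mRNA, the order of the members differed between the groups. In the controls of both times, Ccl5 ranked first, at 28.7 ± 4.55 (SD, n = 3) and 30.8 ± 4.91 CPM per kb (SD, n = 3), and Ccr2 second, at 15.7 ± 5.18 and 13.03 ± 3.003 CPM per kb. Ccl2 and Ccl7 came last, at 1.03 ± 0.701 and 0.849 ± 0.486 CPM per kb at 2 weeks, and these neighbours did not differ beyond their spread. At 2 weeks, Ccl5 and Ccr2 held 32.9 ± 3.81 and 30.4 ± 5.79 CPM per kb after 65 Gy, again within their spread, followed by Ccl2 at 19.9 ± 5.85 and Ccl8 at 17.8 ± 3.47 CPM per kb. After 75 Gy, Ccr2 came first at 57.5 ± 27.2, ahead of Ccl5 at 33.2 ± 12.9 and Ccl8 at 31.7 ± 5.53 CPM per kb, and these neighbours overlapped in turn, with libraries of Ccr2 at 40.55 to 88.9 and of Ccl5 at 24.7 to 48.01 CPM per kb. At 6 weeks Ccl8 ranked first, at 59.3 ± 14.9 CPM per kb (SD, n = 2) after 65 Gy and 94.5 ± 39.8 CPM per kb (SD, n = 3) after 75 Gy. Ccr2 held 48.9 ± 9.64 CPM per kb after 75 Gy, and its highest library, at 58.9, overlapped the lowest of Ccl8, at 53.8 CPM per kb.

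Whether the higher dose gave higher levels was asked at each time. No member was called between 75 and 65 Gy at 2 weeks, at 6 weeks or in the mean of both times by edgeR's quasi-likelihood test, and none of all genes tested (0%) was called either. At an unadjusted p under 0.05 there were 4 members at 2 weeks (Ccl8, Ccl12, Ccr1 and Ccr2), 0 at 6 weeks and 4 in the mean, among 1570, 1431 and 2636 genes. DESeq2 called 1 member at 2 weeks, Ccl12, and none in the other comparisons of the doses, among 7, 14 and 0 genes. Ccl12 had a log2 difference of 1.52 (95% interval 1.02 to 2.02, adjusted p = 0.0946) at 2 weeks. Ccl8 differed by 0.83 (95% interval 0.23 to 1.44), Ccr1 by 0.86 (0.38 to 1.34) and Ccr2 by 0.92 (0.29 to 1.55), each with an adjusted p of 0.692. For these 4 of 9 members, the 75 Gy libraries all lay above the 65 Gy libraries, as for 5% of all genes. Without library 3134, the differences were 0.68 for Ccl8, 1.39 for Ccl12, 0.55 for Ccr1 and 0.46 for Ccr2, and those of the other 5 turned below 0, from 0.39 to -0.10 for Ccl2, from 0.29 to -0.12 for Ccl3, from 0.45 to -0.13 for Ccl4, from 0.015 to -0.35 for Ccl5 and from 0.59 to -0.096 for Ccl7.

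Over both times together, Ccl8 was 0.75 (95% interval 0.30 to 1.21), Ccl12 0.77 (0.40 to 1.15), Ccr1 0.58 (0.21 to 0.94) and Ccr2 0.67 (0.20 to 1.15) higher at 75 Gy on the log2 scale, each with an adjusted p of 0.405. At 6 weeks the difference of Ccl12 was 0.02 (95% interval -0.53 to 0.57, adjusted p = 0.989) and that of Ccl8 was 0.67 (95% interval -0.0024 to 1.35, adjusted p = 0.735). For Ccl2 the interval ran from -0.41 to 1.19 at 2 weeks and from -0.45 to 1.42 at 6 weeks, so a difference of more than 1 in favour of 75 Gy lay within both.

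The change from 2 to 6 weeks was then taken within each treatment. In the controls, no member was called, against 0.576% of all genes, none had an unadjusted p under 0.05, and DESeq2 called none, with 3412 genes at such a p and 225 called by DESeq2. After 65 Gy, 1 member, Ccl8, was called, against 0.34% of all genes. It was higher at 6 weeks by 1.74 on the log2 scale (SE 0.31, adjusted p = 0.0232), and the call was lost without library 3129, 3130, 3131 or 3138, with values of 1.91, 1.63, 1.68 and 1.44. Ccl2 was at -1.82 (SE 0.46, adjusted p = 0.101) and Ccl3 at -1.13 (SE 0.32, adjusted p = 0.138), and DESeq2 called both of these and Ccl8. Ccl12 was at 0.53 (SE 0.26, adjusted p = 0.419).

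After 75 Gy, 5 members were called between the times, against 3.16% of all genes. Ccl8 was higher at 6 weeks by 1.58 on the log2 scale (SE 0.29, adjusted p = 0.00584). Ccl2 fell by 1.72 (SE 0.39, adjusted p = 0.015), Ccl3 by 1.73 (SE 0.28, adjusted p = 0.00363), Ccl4 by 1.38 (SE 0.40, adjusted p = 0.0386) and Ccl7 by 1.5 (SE 0.46, adjusted p = 0.0476). Ccl12 was at -0.97 (SE 0.23, adjusted p = 0.0178), short of the fold for a call, and Ccl5, Ccr1 and Ccr2 were not called. Without library 3134, Ccl3 and Ccl8 were called and Ccl2 was at -1.22, Ccl4 at -0.80 and Ccl7 at -0.81. The call of Ccl4 was also lost without 3131, 3136, 3141, 3142 or 3143, and that of Ccl2 without 3143. The call of Ccl7 was kept in 5 of 17 fits with 1 library left out (without 3126, 3128, 3129, 3132 or 3133) and was lost with upper-quartile factors (adjusted p = 0.056). In a fit of only these groups, none was called. In the same comparison, 5 of 5 mast cell markers were called higher at 6 weeks (median log2 change of the list 2.32), as were 3 of 4 cardiac muscle markers (median 2.18), 1 of 3 tested skeletal muscle markers (median 0.88) and 1 of 4 adipocyte markers (median 2.92, with all 4 at an unadjusted p of 0.05 or less). None of 12 macrophage, 5 classical monocyte, 10 neutrophil, 5 endothelial, 5 B cell or 11 lung epithelium markers was called. Of 10 alveolar macrophage markers, 2 were called higher and 1 lower, and of 6 dendritic cell markers 1 and 1. Of 4 non-classical monocyte and 5 fibroblast markers, 1 each was called higher, and of 14 T and NK cell markers 1 lower. The part of these cells in the members' changes was not tested.

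A test of the difference itself, the effect of irradiation at 6 weeks minus that at 2 weeks, called no member at either dose in edgeR, against 0.0136% of all genes at 65 Gy and 0.254% at 75 Gy. At an unadjusted p under 0.05 there were 3 members at 65 Gy and 5 at 75 Gy, among 1908 and 3543 genes. Ccl8 had the largest positive values, 2.29 (SE 0.46, adjusted p = 0.12) at 65 Gy and 2.13 (SE 0.45, adjusted p = 0.0618) at 75 Gy, the latter called without library 3134 (2.29) or 3141 (2.40). Ccl2 was at -1.46 (SE 0.66, adjusted p = 0.569) and -1.37 (SE 0.62, adjusted p = 0.299), and Ccl3 at -0.98 (SE 0.43, adjusted p = 0.562) and -1.59 (SE 0.41, adjusted p = 0.117). Ccl12 was at 0.72 (SE 0.38, adjusted p = 0.6) at 65 Gy and -0.78 (SE 0.36, adjusted p = 0.305) at 75 Gy. DESeq2 called Ccl8 at 65 Gy, and Ccl3 and Ccl8 at 75 Gy, among 78 and 301 genes, where edgeR called 3 and 56.

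The other CC ligands gave 14 listed genes, of which 13 were tested, since Ccl26 had no count in any library. At 2 weeks, 5 were called higher at each dose, against 3.47% of all genes at 65 Gy and 5.67% at 75 Gy. At 6 weeks, 7 were called higher at 65 Gy and 8 at 75 Gy, against 4.34% and 7.28% of all genes. None was called lower. Ccl6, a myeloid CC chemokine, rose in all 4 comparisons, from 232 CPM in the controls of 2 weeks to 622 CPM at 65 Gy and 910 CPM at 75 Gy, and from 168 CPM in those of 6 weeks to 767 and 900 CPM. Ccl9, a ligand of Ccr1, rose from 19.5 CPM to 61.5 and 124 CPM at 2 weeks and from 14.4 CPM to 75.3 and 103 CPM at 6 weeks. The ligands of Ccr4 rose in all 4 as well, with log2 fold changes of 1.16 to 3.31 for Ccl17 and of 1.35 to 1.81 for Ccl22.

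Ccl11, an eosinophil attractant that lies between Ccl7 and Ccl12 on the chromosome, was called at 6 weeks only, with log2 fold changes of 1.42 (adjusted p = 0.0015) at 65 Gy and 1.89 (adjusted p = 3.2e-05) at 75 Gy, against 0.26 and 0.47 at 2 weeks. Ccl20, the ligand of Ccr6, was likewise called at 6 weeks, at 3.29 and 4.09, against 1.12 and 1.502 at 2 weeks. From 2 to 6 weeks, Ccl11 was called higher after both doses, by 1.22 (adjusted p = 0.037) at 65 Gy and 1.48 (adjusted p = 0.00197) at 75 Gy, and Ccl20 after 75 Gy, by 2.03 (adjusted p = 0.0194). The difference of the irradiation effects between the times was called for neither gene. Ccl19 was called at 75 Gy and 6 weeks alone, at 1.14 (SE 0.37, adjusted p = 0.025). Ccl1, a ligand of Ccr8, had 0 counts in the controls of 2 weeks, 120 counts over the 65 Gy libraries and 375 over the 75 Gy libraries. Against a limit of 3 counts over the control group, it was at least 32.8-fold and 102-fold higher, and 288 of the 375 counts came from library 3134, without which the second bound was 34.5-fold. At 6 weeks it had 2 counts in the controls, 57 after 65 Gy and 72 after 75 Gy.

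**Figure D4:**
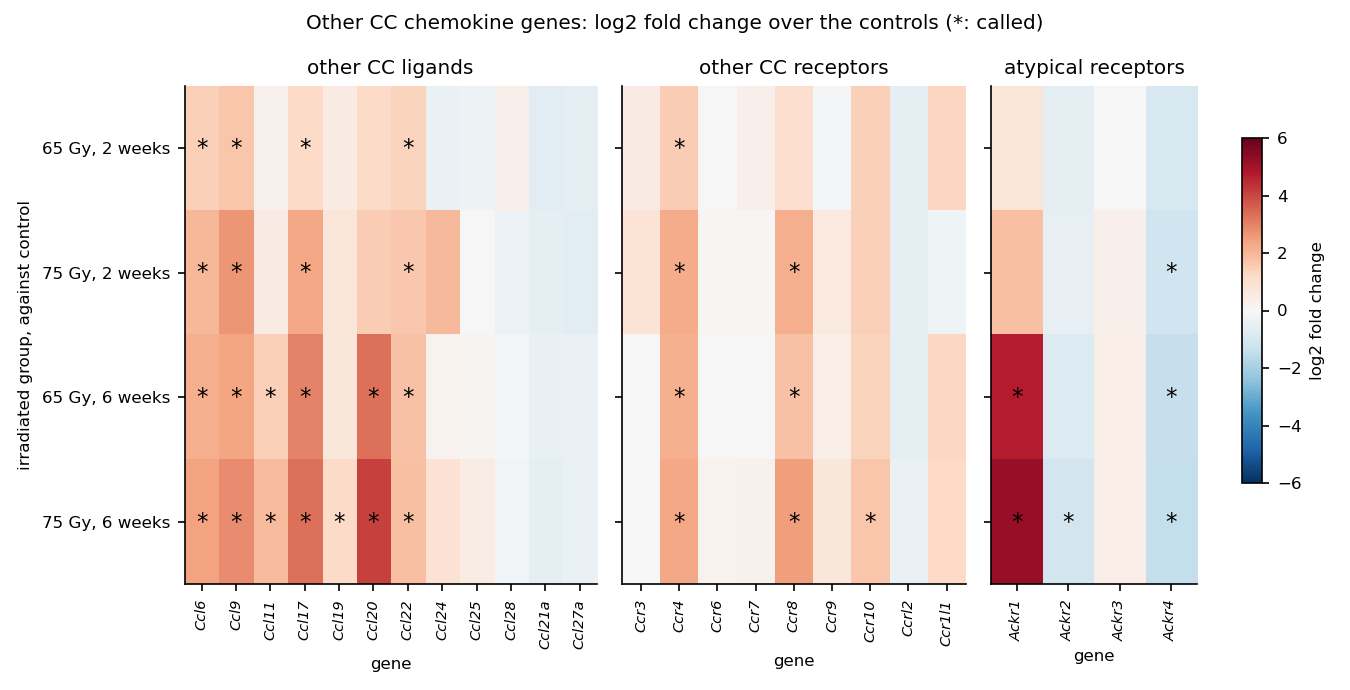
Log2 fold change over controls of 12 other CC ligands, 9 other CC receptors and the 4 atypical receptors, in colour, with a star for each call. Ccl1 is left out because its 2-week controls had 0 counts, and Ccl26 because it had none at all. Ccl6, Ccl9, Ccl17, Ccl22 and Ccr4 carry a star in all 4 rows, and Ackr4 is called lower in 3.

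Of 9 other CC receptors, 1 was called higher at 65 Gy and 2 at 75 Gy at 2 weeks, against 3.47% and 5.67% of all genes. At 6 weeks, 2 and 3 were called higher, against 4.34% and 7.28% of all genes. Ccr4, the receptor of Ccl17 and Ccl22, rose in all 4 comparisons, with log2 fold changes of 1.51 to 2.33. Ccr8, the receptor of Ccl1, was called except at 65 Gy and 2 weeks, and Ccr10 only at 75 Gy and 6 weeks, at 1.65 (SE 0.51, adjusted p = 0.02). Atypical receptors bind chemokines without signalling through G proteins. Ackr2, which takes up inflammatory CC chemokines, was lower at 75 Gy and 6 weeks by call, at -1.12 (SE 0.15, adjusted p = 8.2e-05), and uncalled elsewhere at -0.49 to -0.81. Ackr4, which binds Ccl19, Ccl21 and Ccl25, was called lower except at 65 Gy and 2 weeks. Ackr1, which carries chemokines across venules, was called higher at 6 weeks, from 0.108 CPM to 2.93 and 4.15 CPM.

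The signalling list held 27 genes downstream of these receptors. In the 4 comparisons (65 and 75 Gy at 2 weeks, then at 6 weeks), 2, 4, 2 and 2 were called higher and none lower. Of all genes tested, 3.47%, 5.67%, 4.34% and 7.28% were called higher. The list's median log2 fold changes were 0.25, 0.28, 0.052 and 0.035, beside -0.0085, 0.00084, 0.0081 and 0.04 over all genes. Rgs16, an inhibitor of G protein signalling, rose in all 4 with log2 fold changes of 3.08 to 3.72. Rgs1, of the same family, was called in 3, at 1.68, 3.21 and 3.72, and was at 1.32 (adjusted p = 0.067) at 65 Gy and 2 weeks. The receptor kinase Grk5 lay between -0.44 and -0.74 and was not called. Of the 16 genes for leukocyte entry, 3, 4, 2 and 2 were called higher and 0, 1, 0 and 1 lower. Itgb2, the beta chain of leukocyte integrins, rose in all 4, at 1.27 to 1.63. Icam1, its endothelial partner, was at 0.60 and 0.49 at 2 weeks and was not called. Cx3cl1, which binds the receptor of non-classical monocytes, was called lower at 75 Gy and 6 weeks, at -1.14 (adjusted p = 3.8e-05).

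Markers of other cells were set beside these results, and their lists differed in direction. Of all genes tested, 3.47% and 5.67% were called higher at 65 and 75 Gy at 2 weeks, and 4.34% and 7.28% at 6 weeks. Of 12 macrophage markers, 7, 7, 9 and 9 were called higher in the same 4 comparisons. Their summed level was 5079 to 10540 CPM in the controls of 2 weeks, 9043 to 9743 CPM after 65 Gy and 12160 to 14660 CPM after 75 Gy. At 6 weeks it was 4458 to 4937 CPM in controls, 11420 to 12860 CPM after 65 Gy and 13990 to 15060 CPM after 75 Gy. Cd68, a lysosomal protein of macrophages, rose from 41.0 to 181 and 229 CPM at 2 weeks and from 37.6 to 166 and 176 CPM at 6 weeks, and Adgre1, which encodes F4/80, rose in all 4 as well. No marker of the list was at 0 in every library, and its part in the chemokine results was not tested.

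Of 5 classical monocyte markers, 0, 1, 0 and 0 were called higher, against 3.47%, 5.67%, 4.34% and 7.28% of all genes. Their summed level was 96.8 to 213 CPM in the controls of 2 weeks, 148 to 169 CPM after 65 Gy and 155 to 335 CPM after 75 Gy, the highest being library 3134. At 6 weeks it was 105 to 121 CPM in controls, 127 and 143 CPM after 65 Gy and 133 to 173 CPM after 75 Gy. Ly6c2, the surface marker of these cells, had log2 fold changes of 0.28, 1.07, 0.48 and 0.82, and Plac8 of -0.57, 0.04, -0.16 and 0.00, none called. The median log2 fold change of the list at 75 Gy and 2 weeks was 0.98, with 3 of 5 markers at an unadjusted p of 0.05 or less. None of the 5 was at 0 in every library, and their part in the results was not tested.

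Among all 22052 genes tested, 766, 1250, 956 and 1606 were called higher in the same 4 comparisons. In either direction, 960, 1707, 1164 and 2297 were called. Of 14 T and NK cell markers, 0, 0, 1 and 3 were called higher and 0, 0, 0 and 1 lower. Of 10 neutrophil markers, 6, 6, 2 and 4 were called lower and none higher. Of 6 dendritic cell markers, 1, 2, 3 and 4 were called higher. Alveolar macrophage markers went both ways, with 2, 2, 4 and 4 of 10 called higher and 3, 2, 0 and 1 lower. Of 5 mast cell markers, 0, 0, 3 and 5 were called higher and 0, 1, 0 and 0 lower. Of 5 endothelial markers, 1, 1, 1 and 5 were called lower, of 5 B cell markers 0, 1, 1 and 2, and of 4 non-classical monocyte markers 0, 1, 0 and 1, with none higher, and none of 5 fibroblast markers was called. Of 4 adipocyte markers, 1 was called lower at 75 Gy and 2 weeks, where the list's median was -2.79 and all 4 had an unadjusted p of 0.05 or less. None of 4 cardiac muscle markers was called against controls, and of 3 tested skeletal muscle markers 1 was called higher and 1 lower at 75 Gy and 2 weeks. The parts of these cells in the chemokine results were not tested.

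The genes whose levels lay nearest to each member over the 17 libraries were taken from all tested genes other than the members. The measure was the root mean square difference of centred log2 CPM. How near the members lay to each other was not ranked. All libraries share the same groups, so these values describe a common course only. Ccl2 and Ccl7 both had Cxcl10, an interferon-induced chemokine, as nearest gene, at 0.42 (r = 0.98) and 0.46 (r = 0.98). For Ccl2, Gdf3 and Msr1, a macrophage scavenger receptor, came next, and for Ccl7 Mab21l3 and the neutrophil attractant Cxcl5. Ccl8 lay nearest to Spp1, which encodes osteopontin, at 0.58 (r = 0.96), then to Kng1 and to Mmp12, the macrophage elastase. Kng1 had a mean of 0 CPM in both control groups, and Gdf3 of 0.048 CPM at 2 weeks and 0.040 CPM at 6 weeks. With a prior count of 0.5 in place of 2, neither gene stayed among the 3 nearest, and Spp1 ranked 2 for Ccl8. Ccl12 lay nearest to Clec4n, at 0.39 (r = 0.97), then to the complement genes C1qc and C1qa, both of which are in the macrophage list.

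Ccl3 lay nearest to Rsad2, an interferon-induced gene, at 0.30 (r = 0.96), then to Plau and Kif20a. Ccl4 lay nearest to Spdl1, at 0.28 (r = 0.95), then to Asf1b and Ckap2l. Ccl5 lay nearest to Themis, a T cell gene, at 0.15 (r = 0.85), then to LOC101055758 and H2-M3, over a small spread of its own (SD 0.30 on the log2 scale). Ccr1 lay nearest to Sirpb1c, at 0.21 (r = 0.95), then to Casp1 and Cd53. Ccr2 lay nearest to Ly86, at 0.16 (r = 0.99), then to Clec12a and Bcl2a1d. With a prior count of 0.5 in place of 2, 2 or 3 of these 3 genes stayed nearest for every member, but ranked by r, no more than 2 did, and none for Ccl4, Ccl8 and Ccl12.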

How the data were processed

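RNA-seq of lung was analysed from 17 libraries. The authors trimmed the reads, aligned them with HISAT2 to GRCm38.p6 and assembled them with StringTie on the NCBI annotation. The authors deposited raw read counts per gene, and how these counts were made from the assemblies is not given in the sources used here. The table holds 45777 genes.

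Counts were tested with edgeR 4.0.16 in R 4.3.3: filterByExpr (at least 10 counts, 15 in all), TMM scaling and quasi-likelihood tests in 1 fit of the 6 groups, with Benjamini-Hochberg adjustment over 22052 genes. Levels are CPM with TMM factors. SE is the log2 change divided by the square root of F. Genes were called at an adjusted p of 0.05 or less with a log2 change of 1 or more in size, limits like those of the study. The 12 comparisons set each dose against the controls of its time, both doses, both times, and the effects between times. The code was tested on simulated counts with 200 changed genes. In no pair of replicates were more than 3.69% of tested counts identical.

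Named genes were the 9 members and every other CC ligand, CC receptor or atypical receptor called against controls. From the signalling and entry lists came the 3 genes of smallest p in each. The 3 non-member genes nearest to each member and the first 2 markers of the lists described by level were also named. 1 further gene of the lists was left out of this report. Members and lists were chosen with earlier results of these data known. Alternatives were DESeq2 1.42.0, other scaling factors, no filter, fits restricted to the groups in question, adjusted p alone and leaving out each library. Upstream sequences, gene positions and overlaps came from RefSeq tables of GRCm38.p6, and mRNA lengths from GENCODE transcripts matched to the RefSeq mRNA.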

Additional observations from a re-analysis of the deposited data

How the results depend on the processing

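In the 4 comparisons with controls, the number of members called stayed within 1.5 times the main count under every alternative run. A factor of 1.5 was the tolerance used here, so single calls could be lost or gained within it. Scaling factors moved the median of all genes by at most 0.042 on the log2 scale. Over all 9 members and 12 comparisons, 522 of 540 values kept their direction and call under alternatives other than leaving out a library, 1 turned its sign, 9 lost and 8 gained a call. Of 1836 values with 1 library left out, 1738 kept both, 55 turned, 33 lost and 10 gained a call, and Ccl5 turned at 75 Gy (lowest -0.15 at 2 weeks and -0.12 at 6 weeks, highest 0.37 and 0.29). Between the doses at 2 weeks, Ccl2 ranged from -0.10 to 0.66, Ccl3 from -0.12 to 0.54, Ccl4 from -0.13 to 0.71, Ccl5 from -0.35 to 0.19 and Ccl7 from -0.096 to 0.96, each lowest without 3134, and at 6 weeks Ccl12 ranged from -0.11 without 3143 to 0.15.

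DESeq2 called 1 member between the doses at 2 weeks where edgeR called 0, and 1 and 2 members for the difference between the times of the effects of 65 and 75 Gy, where edgeR called 0. Between 2 and 6 weeks at 65 Gy, edgeR called 1, DESeq2 called 3 and a fit of only these groups called 3, and leaving out 1 library gave 0 (without 3129, 3130, 3131 or 3138) to 3 (without 3134). Between the times at 75 Gy, the 5 calls became 0 in a fit of only these groups and 2 (without 3134) to 6 with 1 library left out, with 3 without 3131, 3136, 3141, 3142 or 3143. The effect of 75 Gy between times gave 0 to 1 calls, 1 without 3134 or 3141. With the other groups left out of the fit, Ccl4 lost its calls at 2 weeks (adjusted p = 0.0618 and 0.0764 for 65 and 75 Gy) and Ccr1 its call at 75 Gy (adjusted p = 0.0517). The causes were not tested. No paired analysis was possible because the groups share no replicate number. With 2 libraries for 65 Gy at 6 weeks, leaving out 1 leaves a single library that is assumed to vary like the others. MCP ligand levels in controls rest on 15 to 82 counts per library, which limits their folds.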
